A study of Mus musculus with 6 samples.

Results

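The genes described here encode the smooth muscle contractile apparatus that marks myoepithelial cells of the mammary gland: Acta2, Actg2, Myh11, Myl9, Mylk, Cald1, Cnn1, Tagln, Oxtr and Myocd. They were taken as the probes that the scanner files name with any of these symbols, which gave 12 of the 55681 probes on the array and 10 of its 34964 genes. Mylk and Cald1 had 2 probes each and the other genes had 1. Myoepithelial cells form the outer, basal layer of the mammary epithelium and squeeze milk out of the alveoli. In smooth muscle and in myoepithelium, calcium activates myosin light chain kinase, which phosphorylates the regulatory light chain of myosin so that the motor can pull on actin filaments. Many of these genes are transcribed through serum response factor (SRF), which binds the CArG box, together with the coactivators myocardin or MRTF, and oxytocin sets off the contraction through its receptor.

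The study used 6 two-colour Agilent arrays. Dll1-high cells were the mCherry+ part, and Dll1-low cells the mCherry- part, of the CD24+CD29hi mammary cells of virgin female C57/B6:Dll1-mCherry reporter mice, with 1 array for each state and no replicate. The labels call this fraction MaSC (mammary stem cell); myoepithelial cells are known to fall in the same gate. The other 4 arrays held F4/80+ macrophages sorted from mammary glands of virgin female C57/B6:cKO-Dll1 conditional knockout mice (KO, replicates 1 and 2) and of wild type littermates (WT, replicates 1 and 2). Dll1 encodes a ligand of Notch receptors, and the study set epithelial cells that differ in its reporter, and macrophages of mice that differ in its genotype, side by side. The labels used here do not give the Cre driver, the cells that lose Dll1, the number of mice behind a sample, or whether replicates came from separate animals. Every sample was labelled with Cy5 and hybridised against Cy3-labelled universal mouse reference RNA, a mix of 11 cell lines, so each level below is a log2 ratio of sample over that mix. A probe's level can be compared between arrays but not with the level of another probe.

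The promoters of Acta2 and Myl9 are shown because they hold matches to the CArG box, the element that SRF binds, close to the start of transcription. The capitals mark matches, on both strands since the box reads as itself on the other strand, to CCNNNNNNGG with A or T at each N, allowing up to 1 mismatch.
Acta2: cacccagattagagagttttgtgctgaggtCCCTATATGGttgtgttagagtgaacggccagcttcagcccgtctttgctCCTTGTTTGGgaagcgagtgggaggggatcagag
Myl9: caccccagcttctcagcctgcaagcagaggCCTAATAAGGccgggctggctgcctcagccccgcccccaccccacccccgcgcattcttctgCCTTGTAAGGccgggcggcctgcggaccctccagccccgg
The first lies at chr19:34255374-34255487 on the minus strand and the second at chr2:156775273-156775404 on the plus strand of GRCm38.p6, both from RefSeq. Of the 10 genes 6 matched a promoter entry, with 7 windows of 250 bases before the start. An exact match was in 1 of the 7 windows (Myl9) and in 1.47% of all 32851 windows; a match with up to 1 mismatch was in 3 of the 7 (Acta2, Myl9 and Cald1) and in 18.6% of all windows. A match in these letters describes the sequence and is not a measured binding site.

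Some macrophage arrays stood apart. The scanner software put Cy5 well above background for 86.0% (Dll1-high) and 88.1% (Dll1-low) of spots, but only for 47.4% to 63.5% on the KO arrays and 50.9% to 71.9% on the WT arrays. On KO replicate 1, 526 spots were dark in the reference channel (Cy3 under 2 times background there and over 5 times it on the 5 other arrays), against 231 on KO replicate 2 and 0 on the others. All macrophage arrays had an uneven dye response, WT replicate 1 the most. The median unprocessed log2 ratio of Cy5 over Cy3 was taken for spots of log2 mean signal 6 to 7 and 10 to 11. On WT replicate 1 it fell from 0.72 to -2.30 between these bins. It fell from 0.90 to -0.08 and from 0.36 to -0.84 on the KO arrays, and from 0.42 to -0.62 on WT replicate 2. The Dll1 probe read 3.94 in Dll1-high and 3.26 in Dll1-low cells, so its order followed the reporter sort. It read 0.80 and 2.25 on the KO arrays and 0.78 and 3.24 on the WT arrays, and these overlapped. The scans of the CD24+CD29hi cells and of the macrophages were on different slides, so the 2 factors cannot be told apart.

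**Figure D1:**
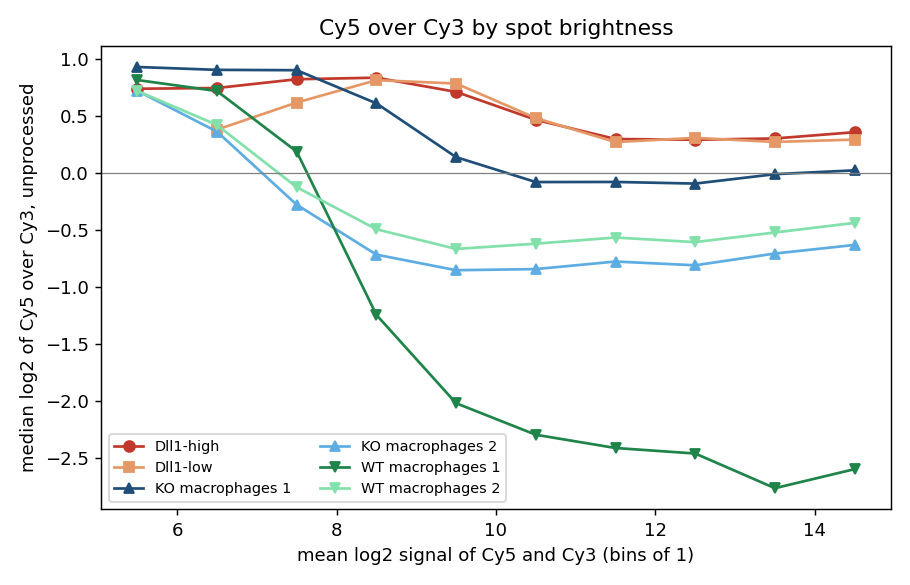
Median unprocessed log2 ratio of Cy5 (sample) over Cy3 (reference) against the mean log2 signal of a spot, in bins of 1, with a line for each of the 6 arrays. WT replicate 1 drops to -2.30 in the bin from 10 to 11, where the other 3 macrophage arrays lie between -0.84 and -0.08.

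Contractile genes stood above the reference mix in both epithelial fractions and were mostly a little higher in the Dll1-high cells. All 12 probes had Cy5 well above background on both arrays, beside 86.0% (Dll1-high) and 88.1% (Dll1-low) of all spots, and none was saturated. Of the 10 genes, 9 were higher in Dll1-high cells, where 43.8% of the 32150 genes compared were higher, and the members' median difference was 0.34 on the log2 scale, against -0.03 for all genes. By the rule used for a call, at least 2-fold, Tagln alone was higher, 1 of 10 genes beside 0.0933% of all genes, and 0.196% of genes were that far apart in either direction. No member was at least 1.5-fold lower, beside 1.6% of all genes. A margin of at least 1.5-fold held for Tagln, Actg2 and Myl9, 3 of 10 beside 0.675% of all genes. With 1 array a state there is no test. As a measure of spot error alone, this difference had a typical SD of 0.12 (median over the 399 probes with repeated spots), and for 95% of those probes the SD was below 0.25.

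Among the filament and motor genes, the actins and the heavy chain were all higher in Dll1-high cells. Acta2, smooth muscle alpha actin (probe at chr19:34316060-34316119 of mm9, minus strand), read 4.20 (SD 0.04 over 9 spots) in Dll1-high and 3.80 (SD 0.20 over 10 spots) in Dll1-low cells, a difference of 0.39. Actg2, smooth muscle gamma actin (chr6:83462904-83462963, minus strand), read 4.63 in Dll1-high and 3.78 in Dll1-low cells, a difference of 0.85, and 47 genes on the array had a larger one. Its lead over the other members, Tagln apart, was also present without the reference channel: quantile-normalized Cy5 alone put Actg2 1.09 higher, past 2-fold. Myh11, the smooth muscle myosin heavy chain (chr16:14202190-14202249, minus strand), read 4.84 in Dll1-high and 4.42 in Dll1-low cells, a difference of 0.42.

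The genes that switch the motor on or restrain it ranged from -0.06 to 0.67. Myl9, the regulatory light chain (chr2:156607301-156607360, plus strand), read 4.53 in Dll1-high and 3.86 in Dll1-low cells, a difference of 0.67. Mylk, the kinase that phosphorylates it, was measured by 2 probes that disagreed. The clone probe, which the array design ties to a cDNA clone (chr16:34953958-34954017, plus strand), read 1.02 in Dll1-high and 1.08 in Dll1-low cells, a difference of -0.06, while the RefSeq probe (chr16:35001266-35001325), which matches a RefSeq transcript, read 2.87 in Dll1-high and 2.23 in Dll1-low cells, a difference of 0.64, past 1.5-fold. Of several probes for a gene, the one with the highest signal averaged over both channels and all 6 arrays was counted, here the clone probe, and so Mylk is the 1 member counted as lower. In the Cy5 channel of these cells the order was the other way: the RefSeq probe had 2991.5 in Dll1-high and 1802.5 in Dll1-low cells, and the clone probe 1416 in Dll1-high and 1426 in Dll1-low cells. The mean of both probes put Mylk 0.29 higher in Dll1-high cells. The probes of Cald1, caldesmon, an actin-binding brake on the motor that non-muscle cells also make in another form, lie on chr6:34723839-34723898 and chr6:34723634-34723693 and read 1.69 and 1.61 in Dll1-high cells, against 1.51 and 1.34 in Dll1-low cells. Cnn1, calponin, another actin-binding regulator (chr9:21913058-21913117, plus strand), read 6.44 in Dll1-high and 6.15 in Dll1-low cells, a difference of 0.29.

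Tagln, transgelin, which bundles actin (chr9:45738097-45738156, minus strand), had the widest ratio difference and the least settled. It read 5.02 in Dll1-high and 3.86 in Dll1-low cells, a difference of 1.16 that only 14 genes exceeded. The reference RNA was the same on both arrays, yet the Cy3 signal of the Tagln spot was 7864 on the Dll1-high and 12343 on the Dll1-low array. After normalization that reference difference was -0.78, as low in 0.202% of all genes and in 1 of the 3216 genes of the brightest 10%, which is Tagln itself; 95% of those bright genes lay between -0.26 and 0.33. Without the reference channel, Tagln was 0.38 higher in Dll1-high cells, in the middle of the members, and the call was lost. Its Cy5 signal was 361938 in Dll1-high and 241957 in Dll1-low cells. What lowered the Cy3 signal of this spot was not tested.

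The receptor and the coactivator were under 1.5-fold apart after loess. Oxtr, the oxytocin receptor (chr6:112423686-112423745, minus strand), read 5.21 in Dll1-high and 5.06 in Dll1-low cells, a difference of 0.15. Myocd, myocardin (chr11:64991930-64991989, minus strand), was near the level of the reference mix, 0.19 in Dll1-high and 0.03 in Dll1-low cells, with Cy5 signals of 172.5 in Dll1-high and 201.5 in Dll1-low cells; the difference was 0.16 as a ratio, 0.60 with the scanner's processed signals, past 1.5-fold, 0.29 with no normexp offset and -0.12 in Cy5 alone, so its direction was not settled. In Cy5 alone, 9 of 10 members were again higher in Dll1-high cells, beside 51.8% of all genes, with Mylk at 0.00 and Myocd the lower gene, and the median was 0.43 against 0.01 for all genes. By the probe that represents each gene, only Actg2 was then at least 1.5-fold higher, beside 1.23% of all genes, while the RefSeq probe of Mylk was 0.70 higher. The count of 9 higher was the same with processed signals, where 1 member was at least 2-fold higher beside 1.04% of all genes, and with median centring of each array.

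**Figure D2:**
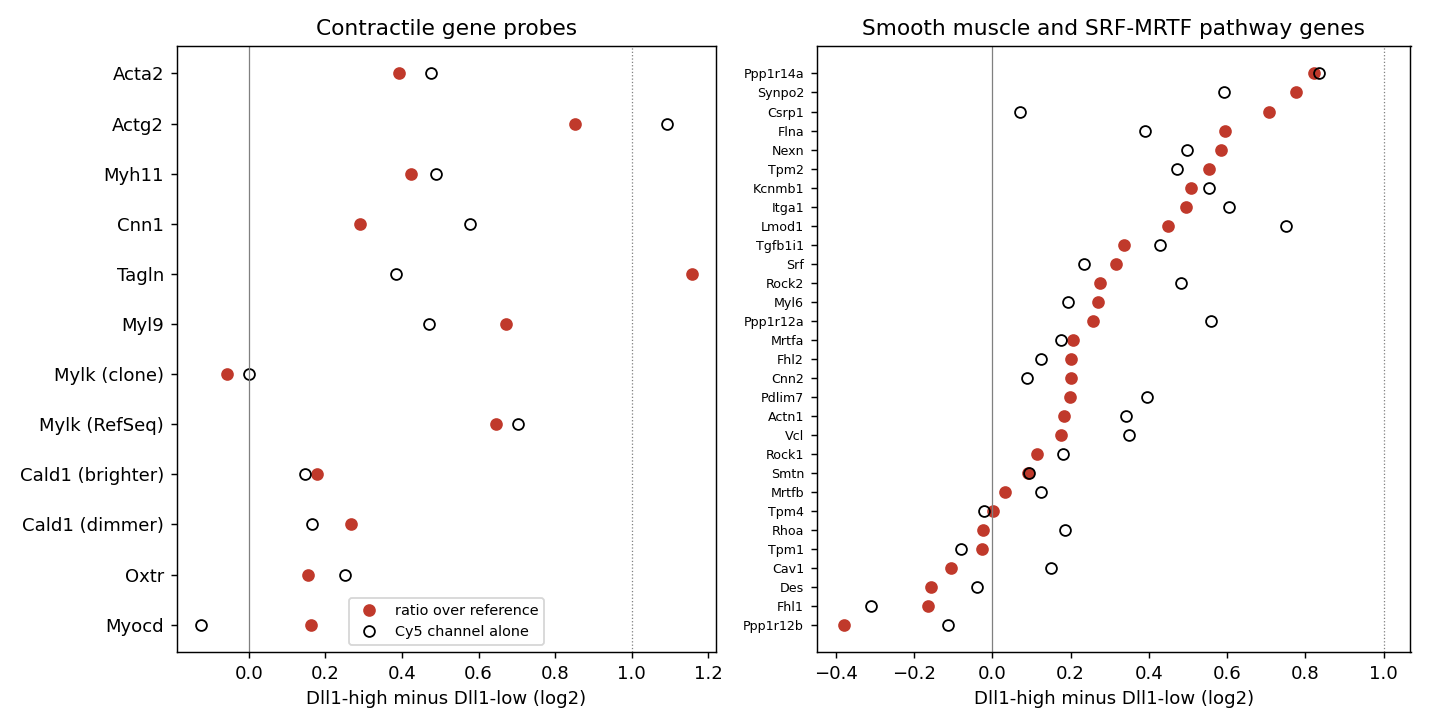
Dll1-high minus Dll1-low log2 difference for each contractile gene probe (left) and each of the 30 pathway genes (right), as a ratio over the reference (filled) and in Cy5 alone (open); the dotted line marks 2-fold. Tagln passes the line at 1.16 only as a ratio (0.38 in Cy5 alone), and Actg2 at 1.09 only in Cy5 alone (0.85 as a ratio).

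A list of 30 other smooth muscle and SRF-MRTF pathway genes showed the same direction with smaller differences. In Dll1-high cells 24 of them were higher, beside 43.8% of all genes, and 6 lower, with a median of 0.20. Of the 30, 0 were at least 2-fold higher, beside 0.0933% of all genes, and 4 at least 1.5-fold higher, beside 0.675%. The 4 were Ppp1r14a (0.82), an inhibitor of myosin phosphatase, Synpo2 (0.78), an actin-binding protein, Csrp1 (0.71), a LIM-domain protein of smooth muscle, and Flna (0.60), the filament crosslinker filamin A. Csrp1 was 0.07 and Flna 0.39 in Cy5 alone, both under 1.5-fold, while Lmod1 (0.75) and Itga1 (0.61) were past it there. In Cy5 alone 25 of the 30 were higher, beside 51.8% of all genes, with a median of 0.21. The number at least 1.5-fold higher was again 4, beside 1.23% of all genes. Srf itself read 2.22 in Dll1-high and 1.90 in Dll1-low cells, a difference of 0.32, and the coactivator genes Mrtfa and Mrtfb differed by 0.21 and 0.03.

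Lists of cell type markers were set beside all genes compared, of which 18063 of 32150 were lower in Dll1-high cells, with a median of -0.03. The 13 basal mammary markers had a median difference of 0.14, with 10 higher in Dll1-high cells and the largest difference 0.33 as a ratio (Itga6) and 1.01 in Cy5 alone (Krt15, 0.14 as a ratio). The 14 luminal markers had a median of -0.24 (11 lower in Dll1-high cells), the 12 fibroblast markers -0.54 (10 lower) and the 10 endothelial markers -0.34 (9 lower). The 12 macrophage markers had a median of -0.08 (9 lower). The 12 markers of vascular smooth muscle and pericytes, cells that share the contractile genes, had a median of -0.05 with 7 lower, near that of all genes. Their list median was 0.41 in Dll1-high and 0.36 in Dll1-low cells. All 12 were well above background, beside 86.0% (Dll1-high) and 88.1% (Dll1-low) of all spots. Whether the share of these cells in the sort plays a part in the contractile differences was not tested; in sorted bulk samples, fewer cells of a type and less RNA per cell cannot be told apart.

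**Figure D3:**
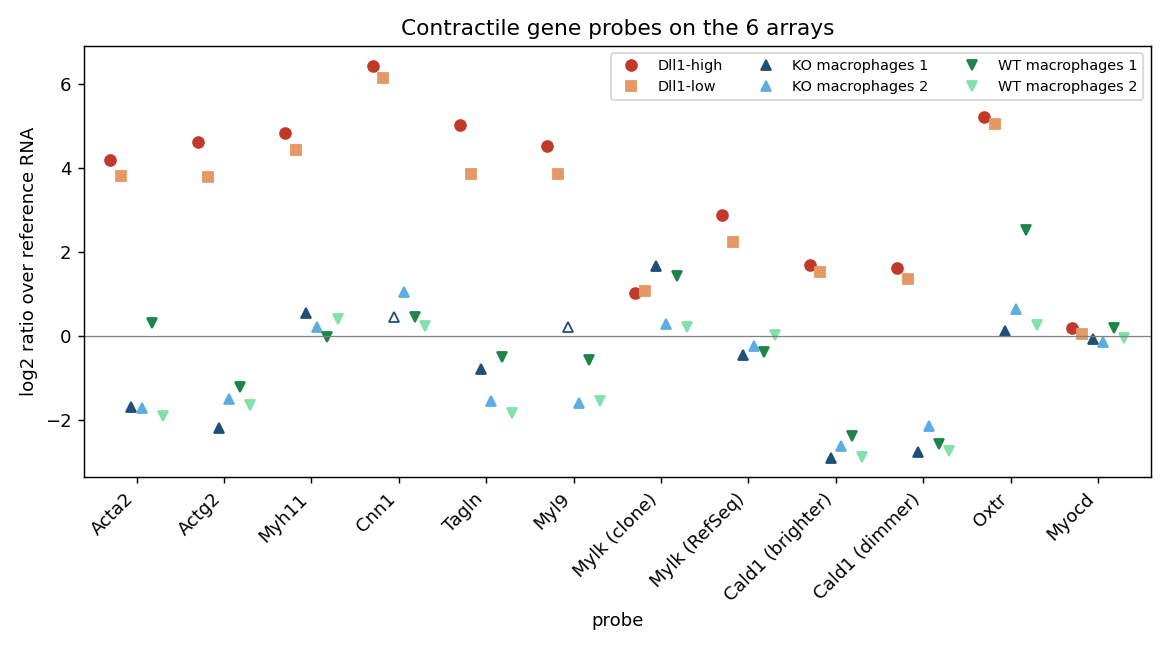
Log2 ratio over the reference RNA for the 12 contractile gene probes (horizontal axis) on the 6 arrays; hollow symbols mark the spots that were dark in the reference channel. The Dll1-high and Dll1-low symbols lie above all macrophage symbols for every probe but the clone probe of Mylk and Myocd.

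On the macrophage arrays most contractile genes were far below their level in the epithelial cells, and several still gave a signal. For 8 of the 10 genes both CD24+CD29hi arrays lay above all 4 macrophage arrays, beside 15.8% of the 31860 genes compared, and each of the 8 did so by at least 2 log2 units, beside 0.722%. The gap between the lower CD24+CD29hi array and the highest macrophage array ran up to 5.12 for Cnn1 and down to 2.54 for Oxtr, and slide and cell type go together in it. Mylk, by its clone probe, and Myocd overlapped between the cell types (gaps of -0.65 and -0.15), while the RefSeq probe of Mylk had a gap of 2.21. Cy5 was well above background for 7 and 8 of the 10 genes on the KO arrays and for 9 and 7 on the WT arrays. Of all spots it was so for 63.5% and 47.4% on the KO arrays and 71.9% and 50.9% on the WT arrays. Myocd was not well above background on any of these arrays. The 3 missing on KO replicate 1 include Cnn1 and Myl9, whose spots were dark there in the reference channel and at background in Cy5 too (80 over 62.5 for Cnn1 and 80 over 62 for Myl9). Whether this signal was RNA carried over from other cells was not tested. Before background and dye correction, the Cy5 of Acta2, as the median over its spots, was 4063.5 and 2097.5 on the KO arrays and 2839.5 and 2258 on the WT arrays. It was 461672 in Dll1-high and 282938 in Dll1-low cells. That of Tagln was 6674 and 2187 on the KO arrays and 1473.5 and 2497 on the WT arrays. Dll1-high cells were thus 114- to 220-fold brighter for Acta2 and 54.2- to 246-fold brighter for Tagln, with no correction between slides. The Cy5 of both genes was flagged as scaled up from a low-gain scan on the CD24+CD29hi arrays and not on the macrophage arrays.

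As a list, the basal markers of the epithelium were low but detected on the same arrays. Of 13, Cy5 was well above background for 11 and 12 on the KO arrays and for 13 and 12 on the WT arrays. The shares of all spots were 63.5% and 47.4% on the KO arrays and 71.9% and 50.9% on the WT arrays. Dsg3 was at background on both KO arrays and on WT replicate 2. The list median was 0.12 and 0.23 on the KO arrays and 0.72 and 0.32 on the WT arrays. It was 3.70 in Dll1-high and 3.64 in Dll1-low cells. Single basal markers ran from -2.94 (Snai2 on KO replicate 1) to 3.23 (Trp63 on WT replicate 1). Trp63 read 1.52 and 0.12 on the KO arrays and 3.23 and 0.32 on the WT arrays. It was thus higher on both replicate 1 arrays than in Dll1-high (0.47) or Dll1-low cells (0.77). Of the 12 markers of vascular smooth muscle and pericytes, 11 and 10 were well above background on the KO arrays and 12 and 11 on the WT arrays. The same shares of all spots apply. Their list medians were 0.55 and 0.68 on the KO arrays and 0.57 and 1.03 on the WT arrays. Single markers of this list ran from -1.18 (Cspg4 on WT replicate 2) to 5.88 (Mcam on WT replicate 1). The part of either source in the contractile signal was not tested. The macrophage markers themselves had list medians of 3.56 and 3.65 on the KO arrays and 1.94 and 3.57 on the WT arrays, so WT replicate 1 stood below the other macrophage arrays.

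No contractile gene passed the test between KO and WT macrophages. With limma and Benjamini-Hochberg adjustment, 0% of the 25040 genes tested passed at 0.05, and 32 had an unadjusted p under 0.05. With so few arrays a genotype, not passing does not show that levels were equal. The variant with an intensity trend and robust variance also passed 0 genes, with 63 at an unadjusted p under 0.05. Of the members 9 were tested, all but Myocd, and none had an unadjusted p under 0.05; the smallest limma adjusted p was 0.999. They were higher in KO for 4 genes and lower for 5, where 60% of all genes were lower, and their median difference was -0.01 against -0.10 for all genes. That median was -0.39 without KO replicate 1, 0.12 without KO replicate 2, 0.21 without WT replicate 1 and -0.45 without WT replicate 2, and -0.41 over the 5 members well above background on all 4 arrays. The 4 higher genes include Cnn1 and Myl9, whose reference spots were dark on KO replicate 1. With dark spots left out, 3 members were higher and 6 lower, and the median was -0.12. Centring each array on its median in place of loess moved the median of all genes to 0.47, and the members' median to 0.65 with 8 of 9 higher, so the members' direction depended on the normalization. Of the 30 pathway genes 25 were tested, 7 higher and 18 lower in KO, and 0 passed.

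The widest member difference was that of Oxtr, which read 0.11 and 0.64 on the KO arrays and 2.52 and 0.26 on the WT arrays. The KO minus WT difference was -1.01 (SE 0.86), and WT replicate 1 alone made it negative: without that array it was 0.11. WT replicate 1 was also the highest array for Oxtr after median centring, at 1.21 against 0.47 and 0.25 on the KO arrays and -0.07 on WT replicate 2. Acta2 read -1.70 and -1.71 on the KO arrays and 0.30 and -1.91 on the WT arrays, a difference of -0.90 (SE 0.83). Here the value of WT replicate 1 went with the normalization, since median centring gave Acta2 -1.89 and -2.16 on the KO arrays and -2.38 and -2.38 on the WT arrays, and without WT replicate 1 the difference was 0.21. Tagln read -0.79 and -1.56 on the KO arrays and -0.50 and -1.83 on the WT arrays, a difference of -0.01 (SE 0.61); the replicates of each genotype were farther apart than the genotypes. Without WT replicate 1 it was 0.66.

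2 members cannot be read on KO replicate 1, where their reference spots were dark. Cnn1 had a Cy3 signal of 24 over a background of 20 there and 430 to 2036.5 on the other 5 arrays, and Myl9 had 37 over 20 against 6069 to 8038. After loess, Cnn1 was the only member whose KO arrays (0.45 and 1.03) both lay above the WT arrays (0.44 and 0.23), beside 20% of all genes whose KO arrays lay on 1 side of both WT arrays, and the 0.45 comes from the dark spot. Myl9 read 0.20 on the dark spot and -1.61 on KO replicate 2, against -0.57 and -1.55 on the WT arrays; its difference was 0.35 (SE 0.78), and -0.55 without the dark spot.

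The rest stayed within the spread between arrays of a genotype. Actg2 read -2.20 and -1.50 on the KO arrays and -1.22 and -1.65 on the WT arrays, a difference of -0.41 (SE 0.42). Cald1 read -2.91 and -2.62 on the KO arrays and -2.40 and -2.90 on the WT arrays, a difference of -0.12. Its Cy5 was not well above background on WT replicate 2. The dimmer Cald1 probe read -2.77 and -2.15 on the KO arrays and -2.58 and -2.74 on the WT arrays, a difference of 0.20. Cy5 of that probe was not well above background on KO replicate 2 and WT replicate 1. Myh11 read 0.55 and 0.22 on the KO arrays and -0.02 and 0.40 on the WT arrays, and its Cy5 was not well above background on replicate 2 of either genotype. The clone probe of Mylk read 1.67 and 0.28 on the KO arrays and 1.42 and 0.20 on the WT arrays, so it was high on replicate 1 of both genotypes, which shared a slide row. Its RefSeq probe read -0.46 and -0.25 on the KO arrays and -0.38 and 0.01 on the WT arrays. Myocd, not above background, read -0.07 and -0.15 on the KO arrays and 0.18 and -0.05 on the WT arrays.

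**Figure D4:**
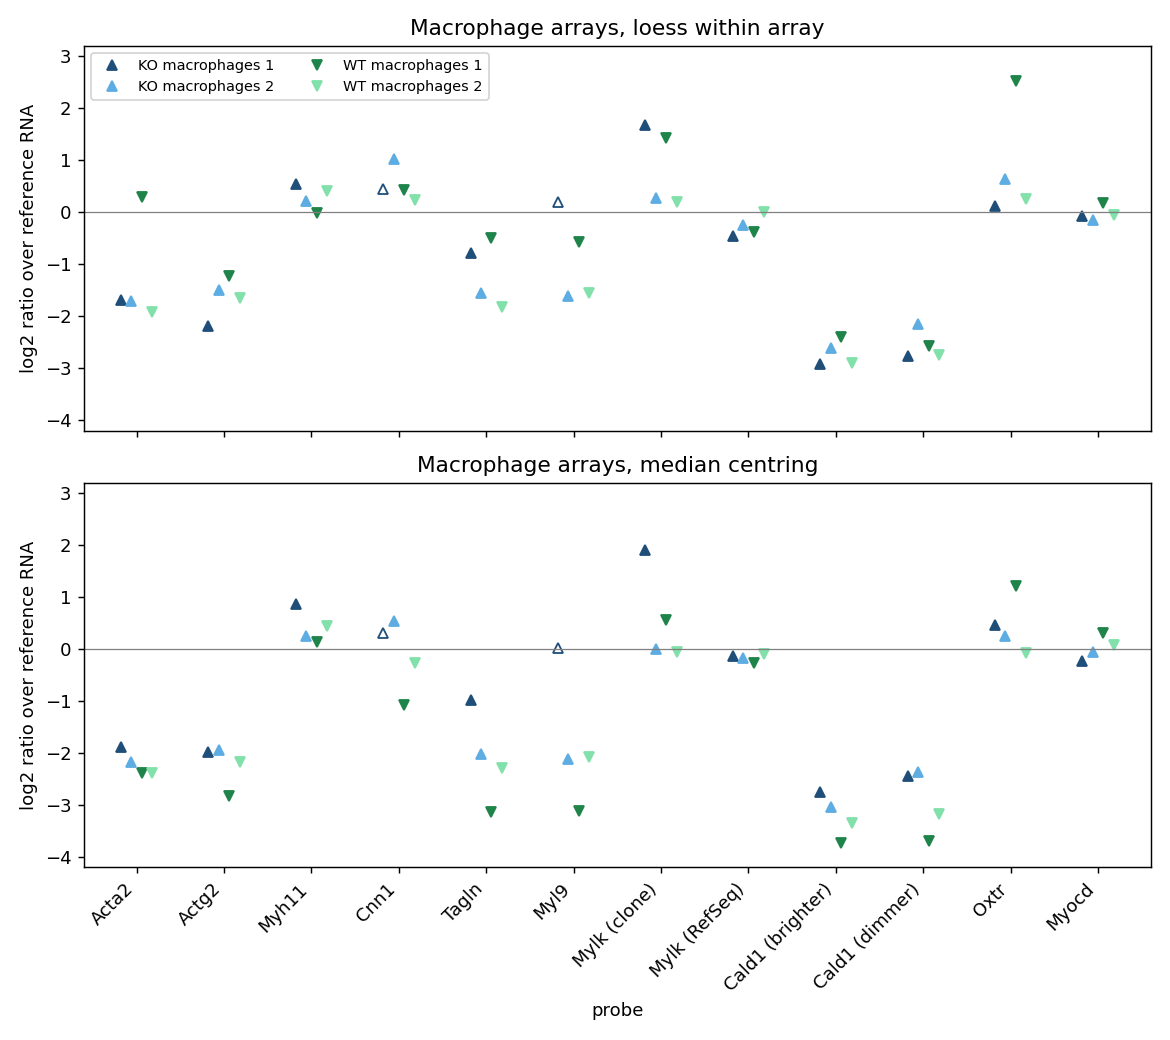
Log2 ratio over the reference RNA for the contractile gene probes on the KO and WT macrophage arrays after loess (top) and after median centring (bottom); hollow symbols are dark reference spots. Acta2 on WT replicate 1 stands at 0.30 after loess and at -2.38 after median centring, while Oxtr on that array is the highest of the 4 in both panels.

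The genes whose pattern over the 6 arrays was most like the members' mean were Krt42, Cxadr, Eppk1, Fat1 and Klf5. The measure was the root mean square difference of the log2 ratios, each centred on its own mean, among 19703 genes. It was 0.15 for Krt42, a keratin, 0.20 for Cxadr, a junction receptor, 0.22 for Eppk1, the keratin-binding epiplakin, 0.24 for Fat1, an atypical cadherin, and 0.25 for the transcription factor gene Klf5. Most of the pattern is the step between the cell types: the members' mean was 3.78 in Dll1-high and 3.36 in Dll1-low cells, and -0.47 and -0.70 on the KO and 0.01 and -0.88 on the WT arrays. The mean on KO replicate 1, which also entered the ranking, includes Cnn1 and Myl9 from their dark reference spots. Between the epithelial states the 5 genes differed by -0.08 (Fat1) to 0.48 (Klf5), against 0.42 for the members' mean.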

How the data were processed

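The files analysed were the scanner output of each array and 1 table of ratios. Per the file headers, Agilent Feature Extraction 11.0.1.1 wrote the scanner files of the CD24+CD29hi cells and version 12.0.2.2 those of the macrophages; the submitters' processing notes give 11.0. Per the file headers, the median spot and local background signals are intensity values, taken before background subtraction and dye normalization. Not all are as scanned. On both arrays of CD24+CD29hi cells, the files flag the Cy5 of Acta2, Actg2, Cnn1, Tagln, Myl9 and Oxtr as scaled up from a low-gain scan. No member probe has this flag on the macrophage arrays. Per the file headers, the log ratio is the log10 of Cy5 over Cy3 after the scanner software's background subtraction and dye normalization. Per the file headers, probe coordinates are on mm9. The authors' deposited value table is in log2 units, sample over reference. Set against the scanner ratio it had slopes of 1.00 to 1.01 per array, its column medians were -0.117 to 0.139, and it was not centred per gene; the sources used here do not give how its few differing values arose.

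Background was corrected by normexp (offset 50) and ratios by loess within each array (limma 3.58.1 in R 4.3.3, with the data.table package at 1.17.8). The 3671 controls of 62976 spots and the 170 to 500 flagged spots per array were left out, and spots were averaged per probe. Names came from RefSeq accessions (27509 probes) or the array design (28172). Of several probes for a gene, the one with the highest signal averaged over both channels and all arrays was used. Dll1-high and Dll1-low cells were compared for genes that 1 array or both detected, that is, put Cy5 well above background. Macrophages were tested with limma (KO minus WT, Benjamini-Hochberg over all genes) for genes detected on at least 2 of 4 arrays. The p-values cover only the spread among these samples, which may be technical. The number of arrays, 6, limits the precision.

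The members and lists were chosen with earlier results of these data known. All members are named. Pathway genes are named at 1.5-fold or more (up to 6 a direction) with Srf, and so are the 5 most alike genes and Dll1. Mrtfa, Mrtfb, Lmod1, Itga1, Itga6, Krt15, Snai2, Trp63, Cspg4, Mcam and Dsg3 were chosen after their values were seen. Alternatives covered the signal, the value table, centring, offset, probe choice, filters, left-out replicates, the replicate block and the fit. Cy5 alone, dark spots and every probe tested were added after seeing the data.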

Additional observations from a re-analysis of the deposited data

How the results depend on the processing

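Counts over all genes moved most between the epithelial states. Genes at least 2-fold higher and lower in Dll1-high cells numbered 30 and 33, against 333 and 672 with the scanner's own processing, 334 and 672 with the value table, 116 and 208 with no normexp offset, and 61 and 74 in Cy5 alone; the mean of all probes gave 21 lower. The members' count was 1 under each of the 8 alternatives, but it was Actg2 in Cy5 alone and Tagln in the setting reported. In macrophages 0 genes passed under any of 16 alternatives by limma. The smallest adjusted p was 0.219, without WT replicate 2, where 4554 genes had an unadjusted p under 0.05. With the replicate number as a block 0 passed (153 at an unadjusted p under 0.05); same-numbered samples had deviations correlated at 0.59, but with 2 pairs they share only a number and a slide row.

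The pathway list's KO minus WT median of -0.21 was 0.80 with median centring, -0.31 with every array well above background and -0.013 in Cy5 alone, and -0.24 to -0.073 with a replicate left out. Of the members' 131 KO minus WT differences under alternatives, 30 changed sign, none with a limma adjusted p under 0.05. With processed signals, or the value table, Tagln was 0.10, Myl9 -0.85 and Cald1 0.43. With median centring Acta2 was 0.35, Actg2 0.54, Tagln 1.23 and Cald1 0.65. With no offset Tagln was 0.072 and Cald1 0.29, and with the mean of probes Mylk was -0.0061 and Cald1 0.042. In Cy5 alone Cnn1 was -0.65, Tagln 0.42, Myl9 -2.10 and Cald1 0.37. Those Cnn1 and Myl9 values include KO replicate 1, where the Cy5 of both spots was at background. Without dark spots Myl9 was -0.55. With a replicate left out, differences ran from -2.002 to 0.21 for Acta2, -0.015 to 0.40 for Myh11, -0.67 to 0.66 for Tagln, -0.55 to 1.26 for Myl9, -0.53 to 0.86 for Mylk, -0.36 to 0.13 for Cald1 and -2.14 to 0.11 for Oxtr. The cause was not tested, except that leaving out the dark spot alone turned Myl9.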
